A study of Drosophila melanogaster with 8 samples.

Results

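Anti-GFP CUT&RUN of undamaged Drosophila melanogaster wing discs was compared between larvae with the transcription factor Zelda fused to GFP at the endogenous locus and untagged larvae. CUT&RUN tethers a nuclease to chromatin through an antibody, and the fragments it releases are sequenced. Per the labels, the discs came from normally developing larvae, both genotypes received the same rabbit anti-GFP antibody (ab290), and the untagged controls were wild type, of the strain w1118. Each genotype had 2 libraries, so 4 of the 8 libraries of the series were members here, and the other 4 came from discs of the same genotypes 2 days after damage. The age of the larvae, the number of discs per library and the source of each replicate are not given in the sources used here. Exact p-values below therefore measure only the spread between these libraries, which may be technical.

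Zelda is a zinc finger protein of the pioneer class, which can bind its sites in closed chromatin and help open them to other factors. It is best known for starting transcription of the zygotic genome in the early fly embryo. The wing imaginal disc is the larval epithelium that forms the adult wing and part of the thorax. Because untagged larvae have no GFP, peaks in their libraries give the background of the antibody and the assay, and a region is informative about the tag only where the untagged lists lack it. The lists hold no expression values, so the identity of the tissue could not be checked by marker genes. No genome sequence was at hand, so no region is shown by its bases.

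The deposited lists held 1744 and 3355 peaks on the 6 chromosome arms in the wild-type libraries (replicates 1 and 2) and 2908 and 1698 in the Zelda-GFP libraries. A further 31.5% to 36.2% of each list lay on the Y chromosome or unplaced sequences. Background coverage, the lowest coverage that the authors' caller expected anywhere in a library, stands in for depth. It was 32.6 and 40.4 fragments per base in wild type and 51.8 and 35.3 in Zelda-GFP, so the library with the fewest peaks and the deepest one were both tagged. Wild-type replicate 2 stood apart from the other lists, with the shortest median peak (350 bp against 513 to 611.5 bp) and a longest peak of 19453 bp against at most 5804 bp.

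The number of peaks did not separate the genotypes. Zelda-GFP discs had a mean of 2303 ± 856 arm peaks (SD, n = 2) and wild-type discs 2549.5 ± 1139. The difference of -246.5 peaks lay within the spread of either genotype (exact permutation test, two-sided, with 2 libraries on each side, p = 0.667). Such a design cannot give a p below 0.333. Without wild-type replicate 2 the difference was 559 peaks, and without Zelda-GFP replicate 2 it was 358.5, both with the sign turned.

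Merging peaks with an overlap of 1 bp or more gave 4955 regions on the arms, and each region was placed by the lists that held it. Only 286 of them (5.77%) were called in both Zelda-GFP lists and in neither wild-type list, and these are called tagged-only regions below. The mirror pattern, both wild-type lists and neither Zelda-GFP list, held 191 regions (3.85%), called untagged-only. All 4 lists shared 728 regions (14.7%). Most regions were called in a single list: 1601 in wild-type replicate 2, 983 in Zelda-GFP replicate 1, 214 in wild-type replicate 1 and 111 in Zelda-GFP replicate 2. A missing call says that the caller's threshold was not passed, not that signal was absent.

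**Figure D1:**
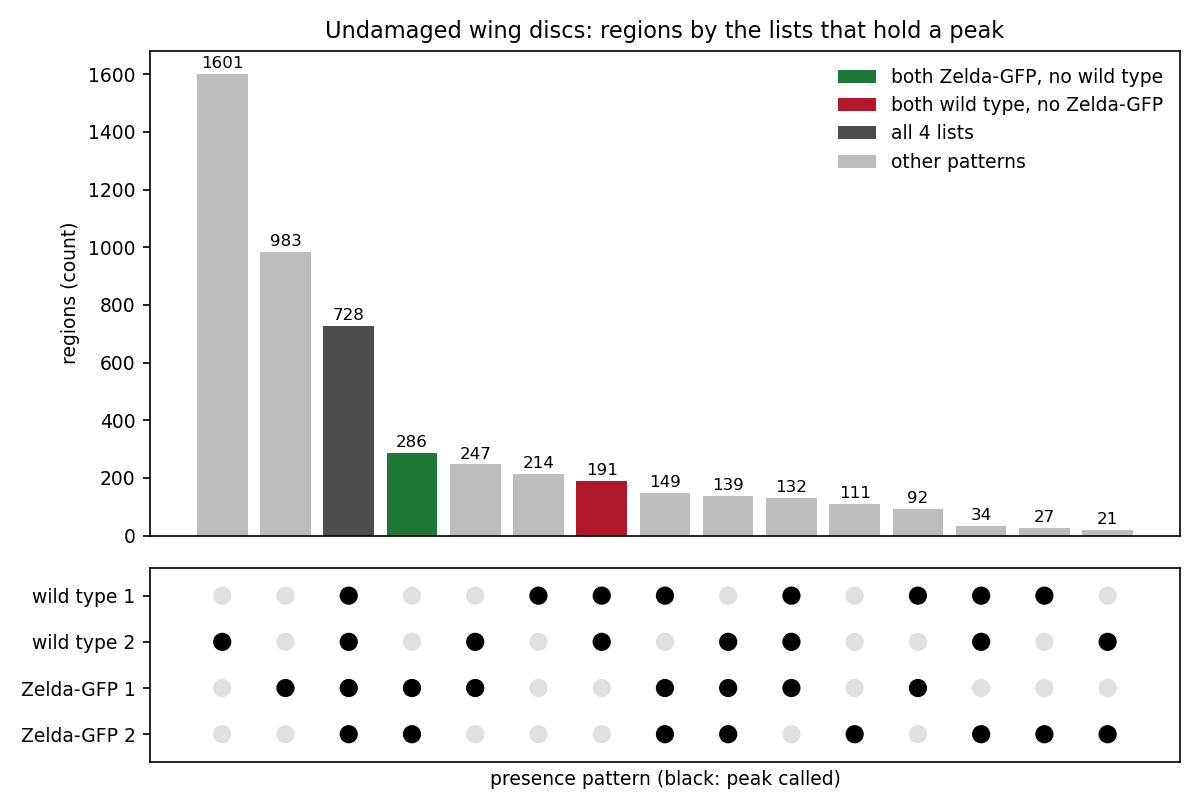
Regions on the chromosome arms (bars, count) by the undamaged lists that held a peak (black dots under each bar). The 286 regions called in both Zelda-GFP lists and no wild-type list stand beside 191 regions with the mirror pattern, 728 regions called in all 4 lists and 1601 called in wild-type replicate 2 alone.

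By the Jaccard index, the replicates were hardly closer to each other than to the other genotype. Unequal list lengths hold this index down, and by the other measures below the Zelda-GFP replicates were the closest pair. The Jaccard index, the regions called in both lists of a pair over those called in either, was 0.442 for the Zelda-GFP replicates and also 0.442 for Zelda-GFP replicate 2 with wild-type replicate 1. It was 0.303 for the wild-type replicates. Wild-type replicate 2 had 0.271 and 0.252 with the Zelda-GFP lists, and wild-type replicate 1 had 0.342 with Zelda-GFP replicate 1. Both Zelda-GFP lists were joined about equally often by either control: 149 regions were called in both Zelda-GFP lists and wild-type replicate 1, and 139 in both Zelda-GFP lists and wild-type replicate 2.

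How far the tagged-only count rests on single libraries follows from the same patterns. Without Zelda-GFP replicate 2 it rose to 1289, since replicate 1 alone had to be present, and without Zelda-GFP replicate 1 it was 466. Without wild-type replicate 1 or 2 it was 444 or 430. The untagged-only count was 1813 without wild-type replicate 1. When every list was reduced to its 1698 peaks of highest fold, the counts were 259 tagged-only and 158 untagged-only regions.

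Tagged-only regions lay near the middle of the lists that held them, at a median percentile of fold of 59.7 in Zelda-GFP replicate 1 and 40.1 in replicate 2. The fold enrichment used here is the authors' ratio of the pileup at a peak to the caller's expected coverage, and it ranks peaks within a list. Tagged-only regions had a median fold of 1.92 in Zelda-GFP replicate 1 and 1.93 in replicate 2, where all arm peaks had 1.83 and 2.03. Untagged-only regions had medians of 2.08 and 2.04 in the wild-type lists, where all arm peaks had 2.06 and 1.84. Their median percentiles were 51.8 and 71.2. Regions shared by all 4 lists had medians between 2.18 and 2.28. A fold of at least 2 in both Zelda-GFP lists was reached by 71 of the 286 tagged-only regions, and 77 of the 191 untagged-only regions reached it in both wild-type lists. List by list, 110 and 118 tagged-only regions and 109 and 108 untagged-only regions reached it. Among all arm peaks, 975 of 2908 and 901 of 1698 did in Zelda-GFP. In wild type, 983 of 1744 and 1078 of 3355 did.

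Many of these regions lay close to a peak of the other genotype. The nearest wild-type peak was a median of 4.09 kb from a tagged-only region, and 115 of the 286 (40.2%) had one within 2 kb. For untagged-only regions the nearest Zelda-GFP peak was a median of 4.67 kb away, and 63 (33.0%) had one within 2 kb. The distance was not measured for other regions, so closeness cannot be called particular to these groups. The median width was 806.5 bp for tagged-only, 713 bp for untagged-only and 1387 bp for regions shared by all 4 lists. It was 432 bp over all regions and 307 bp for those called in a single list. Merging peaks of several lists widens a region, so these widths cannot be called a trait of the groups.

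Repeat-rich chromosome parts supplied much of each group. The pericentric parts, taken as round distances from the arm ends with all of chromosome 4, held 43.7% of tagged-only regions (95% Wilson interval 38.1% to 49.5%), 59.2% of untagged-only regions (52.1% to 65.9%) and 53.2% of regions in all 4 lists (49.5% to 56.8%), against 41.4% of all regions. These intervals cover counting error over regions, which are not replicates of a genotype. By library, 52.6% and 42.0% of wild-type peaks and 45.1% and 49.4% of Zelda-GFP peaks were pericentric. The mean difference of -0.0679 percentage points was within the spread (47.2% ± 2.99 against 47.3% ± 7.55, SD, n = 2, exact permutation p = 1.0).

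Few tagged-only regions lay at gene ends. Only 23 of the 286 (8.04%, Wilson interval 5.42% to 11.8%) came within 500 bp of where a protein-coding gene starts or stops, against 4.71% (2.5% to 8.71%) of untagged-only regions, 9.07% of those in all 4 lists and 18.1% of all regions. Regions called in a single list had 25.2%, so a low share was common to the 3 groups. A gene span of any kind was overlapped by 48.3% of tagged-only, 44.0% of untagged-only, 44.9% of shared and 57.9% of all regions. Peaks near gene ends made up 6.59% and 16.3% of the wild-type lists and 15.2% and 6.36% of the Zelda-GFP lists. The library with more peaks had the larger share in each genotype, and the mean difference of -0.671 points was within the spread (10.8% ± 6.23 against 11.4% ± 6.84, SD, n = 2, exact permutation p = 0.667). It turned to 4.17 points without wild-type replicate 2 and to 3.73 without Zelda-GFP replicate 2. The table of genes used here gives neither strand nor exons, so a start cannot be told from an end, nor an exon from an intron.

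**Figure D2:**
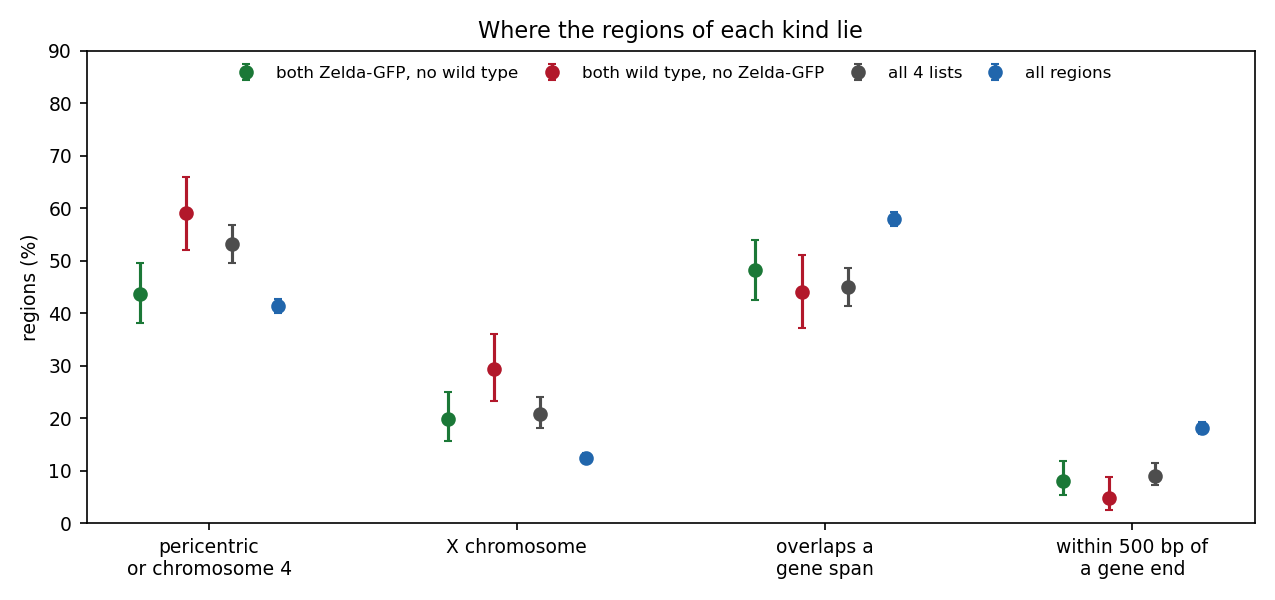
Share of regions (percent, points with 95% Wilson intervals over regions) that were pericentric or on chromosome 4, on the X, inside a gene span or within 500 bp of a protein-coding gene end. Tagged-only regions were within 500 bp of a gene end in 8.04% of cases, near the 9.07% of regions in all 4 lists and below the 18.1% of all regions, and untagged-only regions were most often pericentric (59.2%) and on the X (29.3%).

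The leading tagged-only regions, by mean percentile of fold within the lists, lay at Stellate genes, a mucin gene, the piRNA locus flamenco and between genes. The strongest was chrX:13999749-14000841, which overlaps ben, a ubiquitin-conjugating enzyme gene, and Ste12DOR, a member of the Stellate family. Stellate genes are tandem copies that encode a protein like the beta subunit of casein kinase 2 and are known for their silencing by piRNAs in testis. Its folds were 9.41 and 8.62 in the Zelda-GFP lists, and neither undamaged wild-type list held a peak. Both damaged wild-type lists did, with folds of 6.10 and 6.67, beside 7.19 and 7.87 in damaged Zelda-GFP discs. The peak at Ste12DOR was therefore missing from the undamaged wild-type lists and from no other list.

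Other Stellate genes were also covered mainly outside the undamaged wild-type lists. The annotation places 13 Stellate genes, all on the X, and 9 of them were overlapped by 7 tagged-only regions, while none was overlapped by an untagged-only region or by one of all 4 lists. By library, 1 and 0 Stellate genes held a peak in undamaged wild type and 10 and 10 in undamaged Zelda-GFP. In damaged discs the numbers were 9 and 10 in wild type and 11 and 10 in Zelda-GFP. An example is chrX:14059121-14061273, over Ste:CG33237 and Ste:CG33236, with folds of 3.11 and 3.02 in undamaged Zelda-GFP and of 3.11, 2.96, 3.07 and 3.27 in the damaged lists. The family was singled out after its values were seen. The 7 regions were called in all 4 damaged lists except that at Ste:CG33240, which damaged wild-type replicate 1 lacked, and wild-type replicate 1 held a region over Ste:CG33246 and Ste:CG33245 at a fold of 2.26. The copies are nearly identical, and how reads that fit several copies were assigned is not given in the sources used here, so the copies cannot be counted as separate sites.

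Several other leading tagged-only regions were also called in untagged damaged discs. The region chrX:21532915-21533569, whose nearest protein-coding gene is the cytochrome P450 gene Cyp6t1 at 13697 bp, had folds of 4.43 and 4.29 in undamaged Zelda-GFP. Its folds were higher, 6.36 and 6.61, in damaged wild type. The region chrX:14280224-14280874 in Muc12Ea, a mucin gene, had folds of 2.90 and 4.21, and all 4 damaged lists held it at 2.44 to 3.69. The region chr3L:27813577-27814990 lies 27679 bp from the nearest protein-coding gene, the translation initiation factor gene eIF4B. It had folds of 4.76 and 3.56 and was likewise in all damaged lists at 1.91 to 3.53. So were chr2R:25266972-25268513, 11654 bp from CG9380, and chrX:21715115-21715578 in the piRNA locus flamenco. In all, 7 of the 10 leading tagged-only regions were called in both damaged wild-type lists.

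The other 3 leading regions were absent from all 4 wild-type lists of the series. At chr3R:15618814-15619371 the folds were 2.81 and 3.43 in undamaged Zelda-GFP and 2.79 and 3.13 in damaged Zelda-GFP. Its neighbour chr3R:15625806-15626148 had 3.08 and 3.05, then 2.61 and 3.0. Both lie between genes, with CG43335 the nearest protein-coding gene at 16097 bp and 9320 bp. The third, chrX:91794-92572, had 4.01 and 3.20 and was called in 1 damaged Zelda-GFP list, at 2.19. Its nearest protein-coding gene is CG17636 at 31798 bp.

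**Figure D3:**
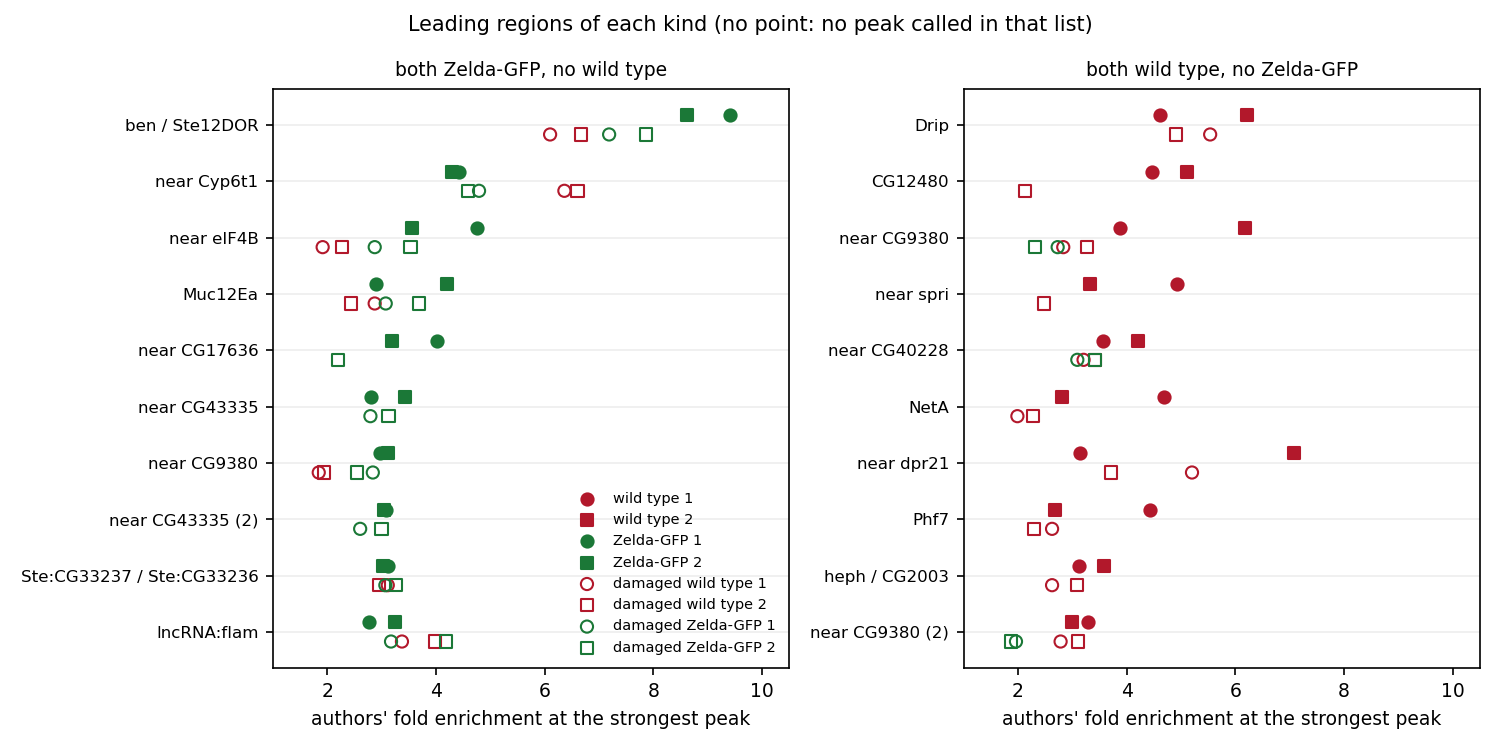
Authors' fold enrichment (horizontal axis, ratio) at the 10 leading tagged-only regions (left) and the 10 leading untagged-only regions (right), in the undamaged lists (filled) and the damaged lists (open), with wild type in red and Zelda-GFP in green. A list without a point held no peak there. Open red points stand at 7 of the 10 tagged-only regions for both damaged wild-type lists, whereas open green points stand at 3 of the 10 untagged-only regions.

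The 10 leading untagged-only regions had folds between 2.68 and 7.08, and 5 of them were in both damaged wild-type lists and in no Zelda-GFP list. The first was chr2R:11416038-11417449 in Drip, which encodes an aquaporin, with folds of 4.61 and 6.21 in undamaged wild type and 5.54 and 4.91 in damaged wild type. No Zelda-GFP list of either condition held it. The same held for chrX:14605478-14606250 in NetA, a Netrin axon guidance gene (4.70 and 2.80, then 1.99 and 2.27), and for chrX:20163805-20164988 in Phf7, a PHD finger gene known for its role in the male germline (4.43 and 2.68, then 2.63 and 2.29). It held too for chr3R:31980336-31982736 over heph and CG2003, where heph encodes a polypyrimidine tract-binding protein. It held also for chr2R:3233809-3234722, between genes with dpr21 nearest at 42798 bp. Regions in CG12480 and near spri were in 1 damaged wild-type list, and the remaining 3 were in all damaged lists. A presence pattern of both libraries of 1 genotype in both conditions was thus found without any tag.

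Regions of all 4 lists were the strongest, and they were called in discs without a tag as well. The highest was chr3R:3169584-3170370 in Pzl, a Piezo-like channel gene that spans pericentric sequence, with folds of 28.95 and 22.53 in wild type and 27.09 and 25.95 in Zelda-GFP. The genotypes overlapped there. Next came chr2R:1825697-1826686 (26.18, 23.67, 25.02 and 24.36) and chr2L:23512796-23513696 (23.47, 20.26, 23.12 and 21.78). Both lie between genes, with CG17684 the nearest protein-coding gene at 39394 bp and Tim23 at 199218 bp. Genes in this group further down were nAChRalpha3, a nicotinic acetylcholine receptor subunit, and rl, the fly ERK kinase, at folds of 5.90 to 8.74 and 4.76 to 8.20. Of 98 annotated rRNA genes on the arms, 91 lay under regions of all 4 lists, and none lay under a tagged-only or untagged-only region. These 91 genes lay under only 8 regions and are nearly all copies of the 5S gene side by side on 2R. They cannot be counted as separate sites. Of all 17684 genes, 2.97% were hit by regions of all 4 lists, counting 2 kb on either side.

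Within the regions shared by all 4 lists, the order of folds was compared between genotypes. Both Zelda-GFP lists ranked 153 of the 728 regions (21.0%) above both wild-type lists, and 172 (23.6%) below them. The clearest case of a higher rank was chr2R:20781475-20782677 in CG44666, with folds of 1.69 and 1.6 in wild type against 4.26 and 3.61 in Zelda-GFP. It was followed, among regions in genes, by isoQC, a glutaminyl cyclase gene (2.07 and 1.94 against 2.90 and 3.19), and by a region over PGRP-LA and PGRP-LC, of which PGRP-LC is the receptor of the Imd immune pathway (1.96 and 2.0 against 3.55 and 2.86). Lower ranks were led by a region of Myo81F (2.56 and 2.68 against 1.91 and 1.71). A region over Ank2, an ankyrin gene, had 4.84 and 4.47 against 2.46 and 2.37. The numbers in the opposite directions were close to each other.

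The damaged lists served as a second set that had not been used to form the groups. Of the 286 tagged-only regions, 65.0% and 63.6% held a peak in the damaged Zelda-GFP lists and 38.1% and 31.5% in the damaged wild-type lists. The difference of 29.5 percentage points was larger than the spread within either genotype (64.3% ± 0.989 against 34.8% ± 4.70, SD, n = 2), at the smallest p that 2 against 2 libraries allow (exact two-sided permutation test, p = 0.333). Over all regions the shares were 33.4% to 34.7% in the 4 damaged lists. Outside pericentric parts the difference was 37.0 points and within them 20 points.

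That difference did not hold in lists of equal length. With every list reduced to its 1698 peaks of highest fold, 22.4% and 16.6% of the 259 tagged-only regions were in damaged Zelda-GFP lists and 32.4% and 16.6% in damaged wild-type lists, a difference of -5.02 points (exact permutation p = 1.0). In the same reduced lists, regions of all 4 undamaged lists were also found less often in damaged Zelda-GFP, at 59.9% and 57.7% against 93.0% and 79.7%. The lowest fold kept was 2.13 and 2.2 in damaged Zelda-GFP and 1.65 and 1.87 in damaged wild type, beside medians of 1.92 and 1.93 for tagged-only regions in the full undamaged lists. Peaks near gene ends filled 37.3% and 40.0% of the reduced damaged Zelda-GFP lists and 8.54% and 41.2% of the wild-type ones. The part of either in the turn was not tested.

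Untagged-only regions showed the mirror image. The damaged wild-type lists held 58.1% and 55.5% of the 191 regions and the damaged Zelda-GFP lists 16.8% and 18.8%, a difference of -39.0 points (17.8% ± 1.48 against 56.8% ± 1.85, SD, n = 2, exact permutation p = 0.333, again the smallest possible). It was -43.4 points in lists of equal length, where regions of all 4 lists also differed, by -27.5 points. With the lists at full length, regions of all 4 lists were found again in 93.8% and 91.5% of cases in damaged wild type. The shares were 92.0% and 89.1% in damaged Zelda-GFP, which is within the spread (exact permutation p = 0.667). In the full lists, each genotype's own regions were thus found more often in damaged discs of the same genotype, with or without a tag.

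**Figure D4:**
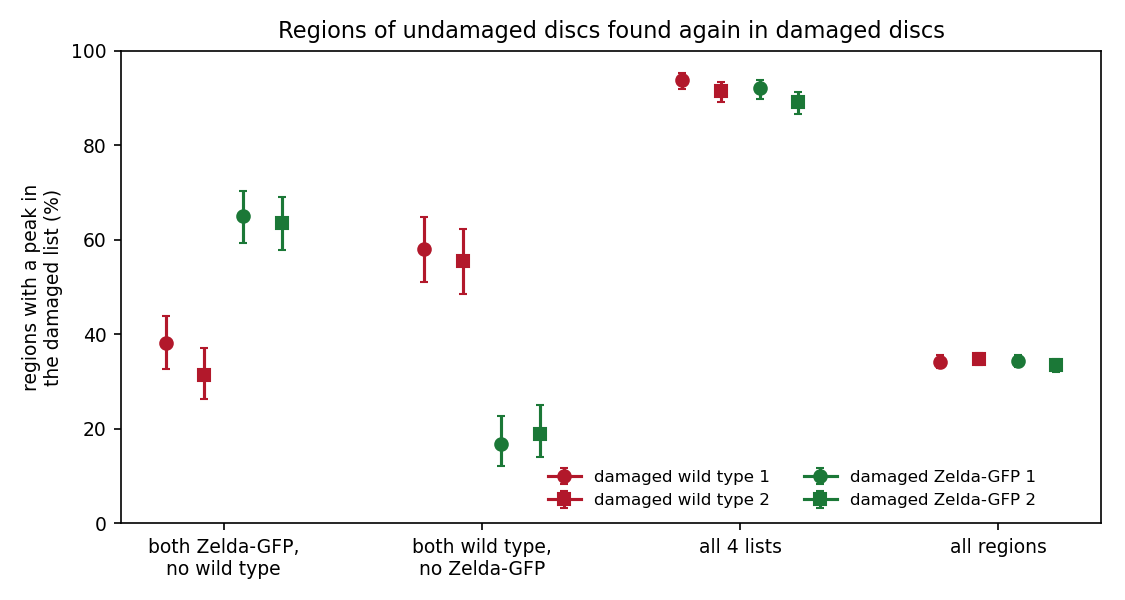
Share of the regions of each group with a peak in each damaged list (percent, points with 95% Wilson intervals over regions). Tagged-only regions were found in 65.0% and 63.6% of cases in damaged Zelda-GFP and in 38.1% and 31.5% in damaged wild type, untagged-only regions the other way round, and regions of all 4 lists in 89.1% to 93.8%.

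The strictest pattern is a region in every list of 1 genotype and in no list of the other, over both conditions. Of the tagged-only regions, 64 of 286 (22.4%) were called in both damaged Zelda-GFP lists and no damaged wild-type list, a pattern held by 5.39% of all 4955 regions. Of the untagged-only regions, 52 of 191 (27.2%) were called in both damaged wild-type lists and no damaged Zelda-GFP list, against 4.56% of all regions. All regions are not a matched reference, since they include both groups and 58.7% of them were called in a single undamaged list. No damaged list held 44.8% of all regions, against 19.6% of tagged-only and 27.2% of untagged-only regions. Only 8 tagged-only and 2 untagged-only regions had the crossed pattern. A further 57 tagged-only regions were called in all 4 damaged lists and 56 in none of them.

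Of the 64 regions held by every Zelda-GFP list and no wild-type list, 46 lay outside pericentric parts. Of these 46, 26 overlapped a gene span. Among tagged-only regions 161 of 286 lay outside, and among all regions 2903 of 4955. A gene span was overlapped by 61.5% of the 161 and 75.2% of the 2903. On the X, which held 19.9% of tagged-only and 12.3% of all regions, lay 12 of the 64. The genes named from them were chosen after the values were seen. The highest mean fold rank among those in genes was in Plc21C, a phospholipase C gene (chr2L:348030-348662), with folds of 2.46 and 2.44 in undamaged and 2.06 and 2.43 in damaged Zelda-GFP discs. Others lay in the serine protease genes Jon99Cii and Jon99Ci, in cindr, which encodes an adaptor protein of cell junctions, and in the receptor phosphatase gene Lar.

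Further examples from these 26 regions had low folds. The Wingless receptor gene fz2 was overlapped at chr3L:19208583-19209130 with folds of 1.97 and 1.90 in undamaged and 1.61 and 1.82 in damaged Zelda-GFP discs. A pair of regions lay in dnt, a Ryk family receptor gene, at chr2L:19345390-19347327 (1.98 and 2.26, then 2.04 and 2.13) and chr2L:19355129-19356992 (2.37 and 1.78, then 1.95 and 1.74). The Hox gene pb was overlapped at chr3R:6738054-6738807 (2.04 and 1.93, then 1.64 and 1.72). The zinc finger gene ab was overlapped at chr2L:11217666-11218518 (1.88 and 2.01, then 2.15 and 2.23). A region over Polr2A, the largest subunit of RNA polymerase II, and CG11699 had 1.95 and 1.84, then 1.92 and 3.18. None of these regions reached a fold of 2.5 in an undamaged list.

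The 52 regions held by every wild-type list and no Zelda-GFP list lay on the X in 24 cases. The X held 29.3% of untagged-only and 12.3% of all regions. Most of the 24 lay in the stretch beside flamenco described below, so they are largely from a single place. Outside pericentric parts lay 78 of the 191 untagged-only regions, 48 of them in genes. Of the 52 regions, 29 lay outside these parts, 21 of them in genes. Beside Drip, NetA, Phf7 and heph they included 2 regions in ph-p, a Polycomb group gene, at chrX:2132182-2132535 (2.26 and 1.64 in undamaged and 2.5 and 2.55 in damaged wild type) and chrX:2132777-2133456 (2.38 and 2.13, then 2.31 and 2.57). The polarity gene baz, the nesprin gene Msp300, the kinase gene Doa and the DNA repair nuclease gene mei-9 were overlapped as well. Wild-type discs carry no GFP, so this set shows how many regions with known genes met the same rule when the tag was on the other side.

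A stretch of the X beside flamenco held the densest untagged-only regions. The locus flamenco is a source of piRNAs against transposons in the somatic cells of the ovary. Its span carried 6 tagged-only, 4 untagged-only and 3 shared regions. Beyond it, chrX:21903860-22139575 held 29 of the 191 untagged-only regions within 235.7 kb, beside 1 tagged-only region and 3 of all 4 lists. Of these 29, 18 were called in both damaged wild-type lists and 4 in any damaged Zelda-GFP list. Their folds were modest, as at chrX:22118098-22119134 with 2.88 and 2.48 in undamaged and 2.52 and 2.78 in damaged wild type. The gene table places no gene in this stretch, whose limits were set after seeing the data.

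**Figure D5:**
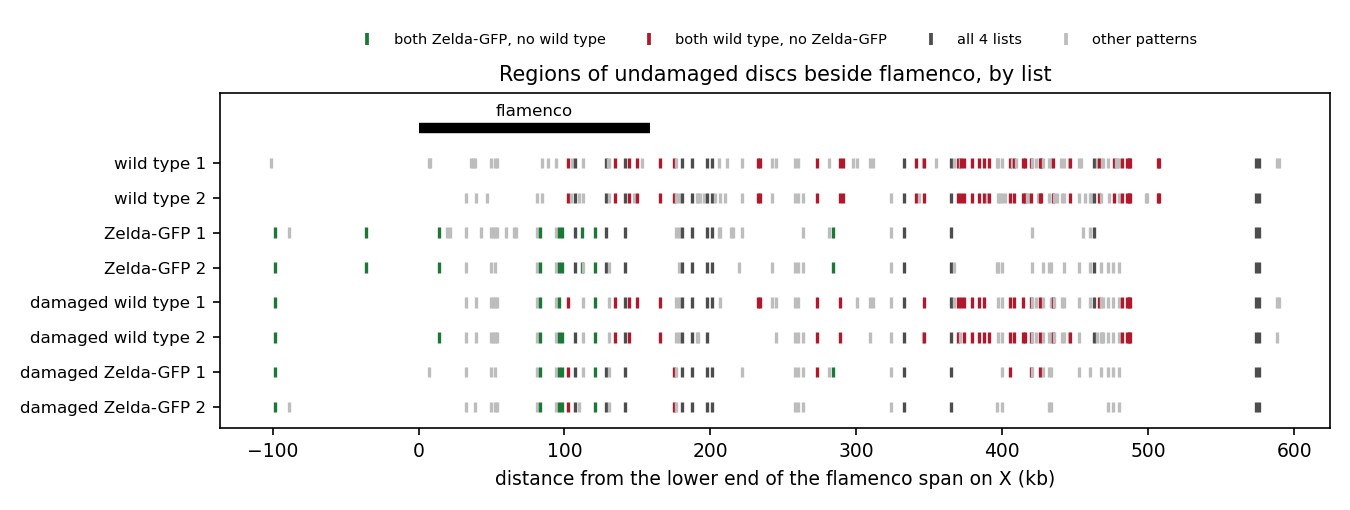
Regions of undamaged discs along the X, by distance from the lower end of the flamenco span (horizontal axis, kb), marked in each list that held a peak. Red marks, the untagged-only regions, crowd the wild-type rows of both conditions between 272 and 508 kb, a stretch with 29 untagged-only regions and 1 tagged-only region.

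Tagged-only regions also lay in groups. A window of 100 kb from chrX:14000001 held 7 tagged-only regions and no other group, all at Stellate genes. Near CG9380, the window of 100 kb from chr2R:25200001 held 5 tagged-only, 4 untagged-only and 1 shared region. The genotypes alternated there within a few kb, as at chr2R:25266972-25268513 (tagged-only, folds 2.97 and 3.12) and chr2R:25268801-25269768 (untagged-only, 3.29 and 3.0).

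Outside the pericentric parts, Con and Sox100B held several tagged-only regions each. Con, which encodes the cell adhesion protein Connectin, held 4 and none of the other groups. Those regions had folds of 2.17 and 1.99, 1.87 and 1.90, 1.83 and 1.97, and 2.08 and 1.70 in Zelda-GFP replicates 1 and 2. Only the last, chr3L:5045780-5049763, was called in damaged discs, by both Zelda-GFP lists (1.96 and 2.04) and by wild-type replicate 1 (1.73). Sox100B, a Sox family transcription factor gene, held 3 tagged-only regions and no other group. Their pileups were high for their folds, 424 to 554 fragments in Zelda-GFP replicate 1 and 249 to 277 in replicate 2, so the caller's local expected coverage was several times the background of those libraries. The one at chr3R:31080207-31081773 had 1.94 and 2.34, and all 4 damaged lists held it, at 1.77 to 2.83. The most regions lay in pericentric genes with very long spans, such as Myo81F, with 9 tagged-only, 7 untagged-only and 34 shared regions.

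The gene lists that bear on the tissue and the factor gave no tagged-only region. A listed gene counted as hit where a region overlapped its span or the 2 kb on either side. None of 27 wing patterning genes, 15 damage response genes, 10 genes of pioneer and architectural factors and 23 early embryonic targets of Zelda was hit by a tagged-only region, where 158 of all 17684 genes (0.893%) were. At that rate fewer than 1 gene of each list would be hit, so these counts carry little information. The same lists had 1 gene hit by untagged-only regions, ph-p, and 1 hit by a region of all 4 lists, the JNK phosphatase gene puc (folds of 2.01 and 2.91 in wild type and 3.91 and 2.53 in Zelda-GFP).

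Single lists did hold peaks at wing patterning genes, and in undamaged discs the genotypes overlapped. Peaks hit 0 and 11 of the 27 genes in undamaged wild type and 2 and 0 in undamaged Zelda-GFP, where the same lists hit 4.31% and 14.0% of all 17684 genes and 10.8% and 4.23%. Damaged discs did not overlap, with 3 and 6 genes in wild type and 22 and 23 in Zelda-GFP, at 7.20% and 27.4% and at 20.3% and 22.7% of all genes. For the early embryonic targets, the undamaged numbers were 0 and 1 in wild type and 2 and 0 in Zelda-GFP, of 23 genes, and the damaged ones 1 and 1, then 7 and 6. The undamaged Zelda-GFP values were within the range of undamaged wild type for the patterning genes, and 1 library was above it for the embryonic targets.

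Control lists placed these numbers. Of all 17684 genes, 0.893% were hit by tagged-only, 0.498% by untagged-only and 2.97% by shared regions. Of 19 genes known for pericentric positions the numbers were 7, 4 and 8. One was rl, with tagged-only regions at folds of 2.06 and 1.74 and of 1.8 and 1.93. Of 13 heat shock genes, 3 (Hsp70Ba, Hsp70Bbb and Hsp70Bb) were hit by regions of all 4 lists and none by the other groups, and none of 10 housekeeping genes was hit by any of the 3 groups. Among 8 marker genes of fly stocks, w was covered in Zelda-GFP replicate 2 alone of the undamaged lists. Its 2 peaks there had pileups of 8575 and 8127 fragments, 243 and 230 times that library's background, while in the damaged lists peaks at w reached 2.54 to 6.39 times background.

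Zelda-GFP replicate 2 had other peaks of very high pileup. Peaks of at least 20 times background numbered 30 in it, 18 in Zelda-GFP replicate 1 and 21 and 12 in wild type. At chr3R:12505749-12506238, over Hsp70Bb, its fold was 23.63 against 2.23, 2.90 and 3.39 in the other lists. The tagged-only region chr3R:2958654-2959468 in Pzl had a fold of 18.47 there and of 1.67 in Zelda-GFP replicate 1. At both places the height was that of 1 library, while the peak itself was also called in the other Zelda-GFP replicate.

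The tagged-only regions overlapped 105 genes, of which 98 are protein-coding, and the untagged-only regions overlapped 60, of which 57 are. Both groups shared 9 genes, which is 8.57% of the first list and 15% of the second. They were DIP-lambda, Msp300, Muc14A, Myo81F, Pzl, Snap25, l(3)80Fg, lncRNA:flam and lovit, which include long pericentric genes, a mucin gene and flamenco. Genes with at least 2 tagged-only regions numbered 25, and those with at least 2 untagged-only regions 9.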

How the data were processed

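Per the submitters' processing notes, the tools were bcl2fastq 2.20, Bowtie2, SAMtools, Picard, deepTools and MACS2 with the build dm6; their settings are not given in the sources used here. The authors deposited 1 narrowPeak list per library: each peak's fold enrichment (a ratio), its −log10 p and −log10 q-values, and a score that was used only to check the layout. Peaks on 2L, 2R, 3L, 3R, 4 and X were merged at 1 bp of overlap (Python 3.11.15, pandas 2.3.3, NumPy 2.4.6, SciPy 1.17.1). Pileups were recovered from the deposited fold and −log10 p under a Poisson tail and came out whole (within 0.05) for at least 99.9% of peaks in each list (rounded). The lists give no read totals. Gene names and spans came from a RefSeq table of Release 6. Pericentric parts were 2L from 22 Mb, 2R to 6 Mb, 3L from 23 Mb, 3R to 4 Mb, X from 22 Mb and chromosome 4. Tests were exact permutations over libraries. The merging and recovery were tested on simulated data. The text names the 10 leading regions of each group by mean within-list percentile of fold, the genes of the lists that these groups hit, and w; other names were chosen after their values were seen. The members and lists were chosen with earlier results of these data known. Listed symbols without a match (h, Dl, Su(Hw), Cht3) were not analysed here. Alternatives were stricter peaks, summit windows, equal list lengths, other sequences, no pericentric parts, a wider gene-end distance, each library left out and the replicate number as a block.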

Additional observations from a re-analysis of the deposited data

Results flagged for a closer look

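Outside the arms compared, the Y chromosome held 10 regions called in both Zelda-GFP lists and neither wild-type list, above the 3 regions with the mirror pattern in the control, among 398 Y regions of which 48 were in all 4 lists. These are 2.51% and 0.754% of the Y regions, both below the 5.77% and 3.85% of the regions on the arms. Y peaks numbered 89 and 296 in wild type and 304 and 104 in Zelda-GFP, so the totals overlapped between genotypes. The comparison has 2 libraries a genotype and no test.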

How the results depend on the processing

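Counts of tagged-only, untagged-only and shared regions were 131, 110 and 343 at a fold of at least 2, and 161, 78 and 341 without pericentric parts. Shared regions numbered 242 in 100 bp summit windows and 1443 over all sequences. With single libraries left out, counts ranged from 430 to 1289 (tagged-only), 228 to 1813 (untagged-only) and 773 to 904 (shared). The genotype difference then ranged from -1052 to 559 peaks, from -5.51 to 4.17 points near gene ends and from -5.40 to 5.27 pericentric points, so none kept its sign. The share of tagged-only regions found again in damaged discs differed by 13.4 to 32.9 points with 1 library left out, the damaged ones chosen after seeing the data, and by 14.8 points in summit windows. It turned to -5.02 in lists of equal length; the cause was not tested. Of its 13 alternatives, 12 kept the direction.

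With the replicate number as a block, the differences stayed at -246.5 peaks, -0.671 and -0.0679 points, each with an exact sign-flip p of 1.0, where 2 pairs cannot go below 0.5. Libraries with the same number did not deviate together in fold over the 728 shared regions (correlation -0.0332). This single value cannot show whether they shared a batch or a preparation.

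Depth in reads was not given, and 2 libraries a genotype cannot pass 0.05 in any of these tests.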
